A study of Mus musculus with 26 samples.

Results

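Untreated cells of the murine lung cancer line EA3 were compared with untreated cells of the line EA1. The comparison used 8 of the 26 RNA sequencing libraries of the series, chosen by their labels: 4 EA1 and 4 EA3 libraries, 1 per line on days 1, 2, 3 and 5 of culture in 0.1% DMSO, the diluent of the ALK inhibitor alectinib. Both lines carry the Eml4-Alk rearrangement, and both were grown at 1 institution from lung tumors of C57BL/6 mice given an adenovirus that encodes Cas9 and guide RNAs against Eml4 and Alk. Each group is 1 line from 1 mouse, so that any inherited or acquired difference between those lines cannot be told apart from any other. The EA3 libraries labelled day 7 and the genes of the X and Y chromosomes were left out.

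The total counts of the 8 libraries ran from 6614606 to 11269945, and the EA3 day 5 library was the shallowest. Mitochondrial transcripts took between 1.22% and 2.78% of the counts. Levels are given as CPM, counts scaled to a common library size by trimmed mean of M-values (TMM) factors. No label says that the libraries of different days came from separate cultures, so the p-values measure only the spread between these libraries around the day they share. A count of 3 in a library served as the detection floor, which was 0.332 to 0.393 CPM in EA1 and 0.281 to 0.511 CPM in EA3 and covers counting error only. A log2 fold change is EA3 minus EA1, estimated with day as a block. A gene was called where its Benjamini-Hochberg adjusted p, from the quasi-likelihood test of edgeR, was under 0.05.

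Of 11798 genes tested, 4170 (35.3%) were called. EA3 was higher for 2168 of them (18.4% of those tested) and lower for 2002 (17.0%). The median log2 fold change of all tested genes was 0.01. Of the called genes, 4057 (97.3%) had 1 sign on all 4 days, and 2101 had a log2 fold change whose size was 1 or more. Without the day block 1756 genes were called, 1005 of them higher in EA3. With day 2 left out 2368 were called, and with day 5 left out 2655. Counts of list members below are to be read against the shares of all tested genes given here.

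The cell cycle is held by inhibitors of the cyclin-dependent kinases. Cdkn1a encodes p21, and the Cdkn2a gene encodes p16, which inhibits the cyclin D kinases, and p19Arf, which binds the ubiquitin ligase Mdm2. Its neighbor Cdkn2b encodes p15, a related kinase inhibitor, and lung cancers often lose this locus.

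The genes of the rearrangement did not differ past the threshold. Alk, the receptor tyrosine kinase of the fusion, had 81.3, 84.1, 77.6 and 60.5 CPM in EA1 and 89.8, 82.1, 103 and 71.5 CPM in EA3 (log2 fold change 0.20, SE 0.15, 95% interval -0.14 to 0.54, adjusted p = 0.34 by edgeR). Eml4 gave -0.17 (SE 0.21, 95% interval -0.65 to 0.31, adjusted p = 0.58 by edgeR). Reads of the fusion and of each native gene cannot be separated in counts per gene.

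**Figure D1:**
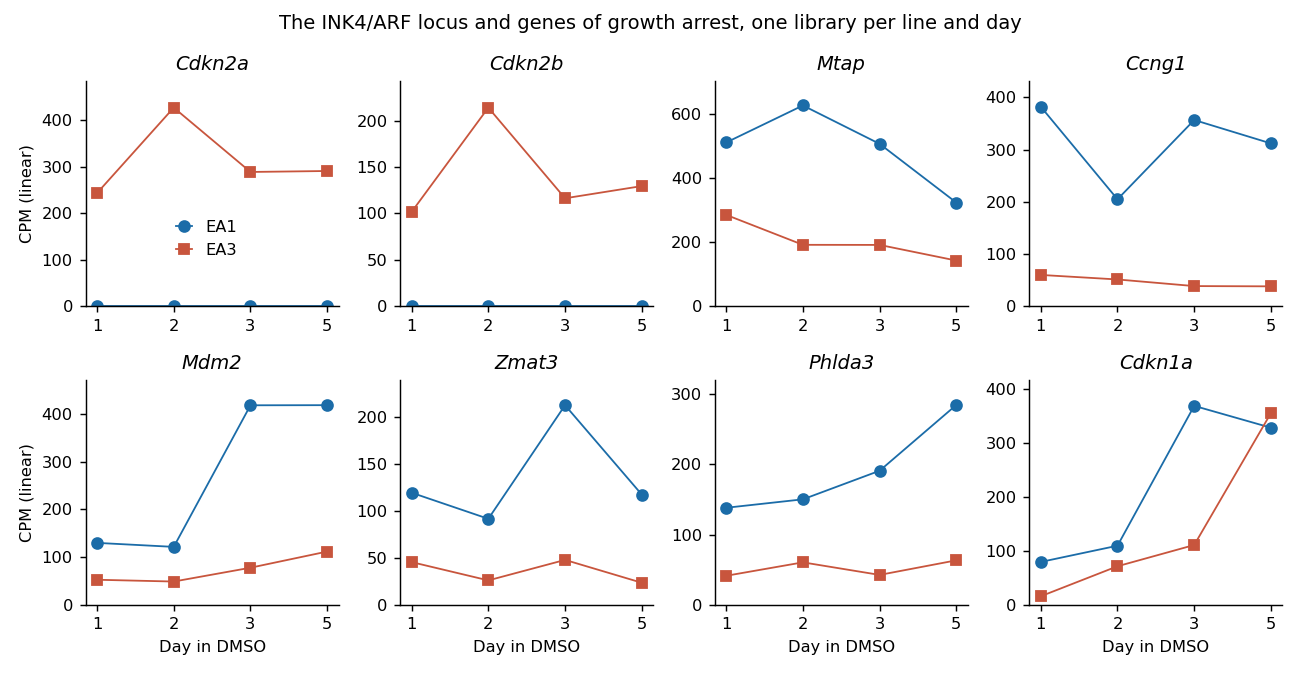
CPM on a linear axis (vertical) against day in DMSO (horizontal) for 8 genes, with 1 library per point, EA1 as circles and EA3 as squares. Cdkn2a and Cdkn2b sit at 0 in every EA1 library, and the lines of Cdkn1a cross between days 3 and 5.

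Ccng1, Mdm2, Zmat3, Phlda3, Bax, Bbc3 and Gdf15 were each lower in EA3 and are given as single genes, with no count over a group. Ccng1, which encodes cyclin G1, had 382, 205, 357 and 312 CPM in EA1 and 59.8, 51.1, 38.5 and 38 CPM in EA3 (log2 fold change -2.72, SE 0.21, adjusted p = 1.43e-05 by edgeR). Mdm2 had 130, 121, 418 and 418 CPM in EA1 and 52.4, 48.7, 77.6 and 111 CPM in EA3 (-1.73, SE 0.21, adjusted p = 0.000193 by edgeR). For both genes the highest EA3 library lay below the lowest EA1 library. Zmat3, an RNA-binding protein gene, was lower by -1.91 (SE 0.19), and Phlda3, an inhibitor of AKT, by -1.84 (SE 0.18). The genes of the death pathway Bax and Bbc3 were lower by -1.03 and -1.21. Gdf15, a secreted stress factor, moved with the days in both lines. It went from 65.2 CPM on day 1 to 2411 on day 3 and 686 on day 5 in EA1, and from 2.06 to 281 and 109 in EA3, which was lower on all 4 days (log2 fold change -3.37, SE 0.33).

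Cdkn1a, which encodes the cell cycle inhibitor p21, was not called. EA1 held 79.6, 110, 369 and 329 CPM on days 1, 2, 3 and 5. EA3 held 15.8, 71.6, 111 and 356 CPM. EA3 was the lower line on days 1 to 3 and the higher line on day 5, and the log2 fold change over the days was -1.12 (SE 0.38, adjusted p = 0.0565 by edgeR). With day 5 left out it was -1.56 and was called, and DESeq2 also called it. Pmaip1 and Plk2 were higher in EA3. Pmaip1, which encodes the death protein Noxa, had 4.86, 9.17, 27.4 and 28.9 CPM in EA1 and 14.9, 31.1, 41.7 and 158 CPM in EA3 (1.62, SE 0.28). Plk2, a polo-like kinase, was higher on days 1, 2 and 5 and lower on day 3 (1.30, SE 0.36).

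Transcripts of the INK4/ARF genes were seen in EA3 and not in EA1. Cdkn2a had 0 counts in each of the 4 EA1 libraries and 2600, 3452, 2126 and 1710 counts in EA3, or 243, 428, 289 and 291 CPM. Against a floor of 3 counts per EA1 library, Cdkn2a was at least 878-fold higher in EA3. Cdkn2b also had 0 counts in every EA1 library and 1084, 1727, 855 and 760 counts in EA3, at least 394-fold higher. The counts of Cdkn2a do not separate the p16 and p19Arf transcripts, which share exons. In mm10 coordinates with GENCODE M21 models, Cdkn2a lies on the minus strand at chr4:89274471-89294653 and Cdkn2b on the minus strand at chr4:89306299-89311039. Mtap, the enzyme of methionine salvage that lies at chr4:89137122-89181081, had 512, 628, 508 and 324 CPM in EA1 and 286, 192, 192 and 143 CPM in EA3 (-1.28, SE 0.18). Between Mtap and Cdkn2a, the noncoding gene Gm12606 at chr4:89235699-89273403 had 6 to 10 counts in EA1 and 0 to 2 in EA3. On the other side the genes were near the floor in both lines: Gm12610 had 0 to 1 counts in EA1 and 1 to 8 in EA3, Gm12608 had 1 to 4 in each line, and Dmrta1 had 0 to 5 in each. EA1 held reads above the floor on the Mtap side of the pair and none in it, and expression on the other side was not shown. Whether the DNA of the pair is present in EA1 was not tested. In EA2, another line of the series from another institution, Cdkn2a stood at 535 to 773 CPM and Cdkn2b at 212 to 301 CPM.

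The lists of the cell cycle did not move one way. Of 41 tested S phase genes, 4 were higher and 8 lower (median -0.19), and of 52 tested G2/M genes, 8 were higher and 6 lower (median 0.05). The shares are below those of all tested genes except for the S phase genes that were lower, at 19.5%. With 1 day left out the S phase counts ran from 0 to 4 higher and 3 to 7 lower, and the G2/M counts from 2 to 8 higher and 2 to 7 lower. No member of either list was called without the day block. Mki67, the proliferation marker, had 1211, 577, 229 and 234 CPM in EA1 and 585, 195, 184 and 129 CPM in EA3 (-0.94, SE 0.21, adjusted p = 0.0075 by edgeR). The level was highest on day 1 in both lines. Aurka, a mitotic kinase, was 0.80 higher in EA3 (SE 0.16). Of 21 tested G1 regulators, 4 were higher and 5 lower. With any 1 day left out the counts were 3 to 4 and 1 to 5, and without the day block 2 and 1. Among them, Rb1, the retinoblastoma protein gene, was lower (-1.25, SE 0.18) and Ccnd3 was higher (0.90, SE 0.17). Cdk4 and Ccnd1 gave -0.11 and 0.20 and were not called.

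Epithelial genes gave the list with the largest median of all lists with at least 12 tested members. Epithelial cells are joined by tight junctions of claudins and occludin and by adherens junctions of E-cadherin, and the factors GRHL2, EHF and ELF3 and the splicing factors ESRP1 and ESRP2 keep that program on. Of 38 tested members of a list of 41, 24 were higher in EA3, 3 were lower and 11 were not called (median log2 fold change 3.78). The number higher was 22 to 24 with any 1 day left out and 22 without the day block. Not every member was higher in EA3. Cdh1, the E-cadherin gene, had 453, 720, 604 and 523 CPM in EA1 and 697, 614, 721 and 655 CPM in EA3, which overlap (0.25, 95% interval -0.15 to 0.65, adjusted p = 0.30 by edgeR). The simple keratin genes Krt18 and Krt19 gave -0.16 and 0.18 and were not called. Krt8 was lower (-0.68, SE 0.20), as were the plakophilin gene Pkp1 (-1.68, SE 0.18) and the polarity gene Patj (-1.07, SE 0.22). Without the day block 2 members were called lower, and Krt8 was not among them.

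Some tight junction genes and their regulators were among the members near 0 in EA1. Of 6 tested claudin genes, 5 were higher and 1, Cldn6, was lower, and without the day block 4 and 0. The junction genes F11r and Lsr had mean levels of 169 and 31.9 CPM in EA1 and 187 and 22.7 CPM in EA3. Cldn3, a claudin, had no EA1 library above 3 counts and 115, 185, 90.0 and 143 CPM in EA3, a ratio of 639 (95% counting interval 310 to 1590). Cldn4 had 0 CPM on days 1, 2 and 3 and 1.18 on day 5 in EA1, and 112, 133, 104 and 165 CPM in EA3. Cldn7 had no EA1 library above 2 counts and 39.4 to 100 CPM in EA3 (ratio 512, 95% counting interval 200 to 1881). Epcam, an epithelial adhesion molecule, had 1.55, 3.41, 0.347 and 0.393 CPM in EA1 and 102, 154, 77.5 and 218 CPM in EA3 (6.63, SE 0.50). Among the regulators, Ehf had 0 counts in every EA1 library and 44.0, 55.5, 36.8 and 98.9 CPM in EA3, at least 165-fold higher. Grhl2 had no EA1 library above 3 counts and 11.7 to 19.1 CPM in EA3 (ratio 116, 95% counting interval 44.8 to 426), and Esrp1 had a total of 1 count in EA1 and 29.4 to 51.2 CPM in EA3. The related gene Esrp2 was present in both lines, with 22.4 to 33.8 CPM in EA1 and 37.2 to 48.7 in EA3 (0.66, SE 0.19). EA2 did not share the high levels of most of these: its 4 DMSO libraries held at most 0.654 CPM of Epcam, 0.454 of Ehf and 0.151 of Cldn7. They held 6.51 to 8.79 CPM of Cldn3 and 3.03 to 6.72 CPM of Grhl2.

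The promoters of epithelial genes often hold the E-box CAGGTG, which repressors of the SNAI and ZEB families bind. The 250 bases before the start in RefSeq promoter windows (build GRCm38.p6, the coordinates of mm10) were searched for CAGGTG on both strands, so that CACCTG counts too, since the levels of those repressors are given below. The choice was made after the data were seen, beside searches for AACCGGTT and AACNNGTT, forms of the grainyhead motif. Of the 24 epithelial genes higher in EA3, 14 had a window, and 9 of the 14 held the E-box. Of the other 14 tested members, 10 had a window and 7 of them held it. Over all 25748 autosomal genes with a window the share was 19.7%. The list thus held the motif in a larger share than all genes did, among its higher members and among its others. A gene with several windows counted where any of them held it. Most windows of the list were richer in G and C than the median of all windows, 52.4%. The part of base content in the share was not tested. AACCGGTT was in none of the 14 windows and in 0.14% of all genes, and AACNNGTT was in 1 of the 14 and in 4.11% of all genes. A match is a description of letters, not of binding. A set of 4 stretches is shown 5′ to 3′ on the strand of the gene, ending at the base before its start, with E-boxes in capitals. Ap1m2, an adaptor of sorting to the basolateral membrane, was at 0 counts in EA1 and at 10.9, 13.4, 5.03 and 16.2 CPM in EA3, and its stretch holds 4 E-boxes, the most of the members higher in EA3. Rab25, a GTPase of recycling, had at most 1 count in an EA1 library and 14.8 to 38.3 CPM in EA3. Cldn4 has its 1 E-box close to the start. Krt8, which is high in both lines, shows the motif in a gene that was not higher in EA3.
Ap1m2, minus strand, chr9:21312334-21312583: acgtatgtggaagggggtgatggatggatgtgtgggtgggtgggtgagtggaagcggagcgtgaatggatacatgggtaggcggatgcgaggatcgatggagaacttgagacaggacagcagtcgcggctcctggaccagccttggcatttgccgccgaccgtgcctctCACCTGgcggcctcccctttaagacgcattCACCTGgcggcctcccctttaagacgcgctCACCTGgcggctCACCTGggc
Rab25, minus strand, chr3:88548280-88548529: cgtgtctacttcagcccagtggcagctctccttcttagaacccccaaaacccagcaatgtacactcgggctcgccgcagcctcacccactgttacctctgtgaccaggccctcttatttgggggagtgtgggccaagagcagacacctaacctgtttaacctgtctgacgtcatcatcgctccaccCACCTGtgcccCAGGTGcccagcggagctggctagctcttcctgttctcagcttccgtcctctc
Cldn4, minus strand, chr5:134946935-134947184: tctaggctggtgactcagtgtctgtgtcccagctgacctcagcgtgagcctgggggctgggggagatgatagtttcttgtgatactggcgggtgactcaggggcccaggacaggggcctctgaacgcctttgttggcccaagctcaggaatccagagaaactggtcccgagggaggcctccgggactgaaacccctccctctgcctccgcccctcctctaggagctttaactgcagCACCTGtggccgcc
Krt8, minus strand, chr15:102004343-102004592: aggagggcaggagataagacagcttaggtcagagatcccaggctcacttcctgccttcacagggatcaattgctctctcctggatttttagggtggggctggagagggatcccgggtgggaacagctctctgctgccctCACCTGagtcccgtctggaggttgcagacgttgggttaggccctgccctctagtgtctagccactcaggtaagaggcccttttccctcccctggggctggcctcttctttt

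**Figure D2:**
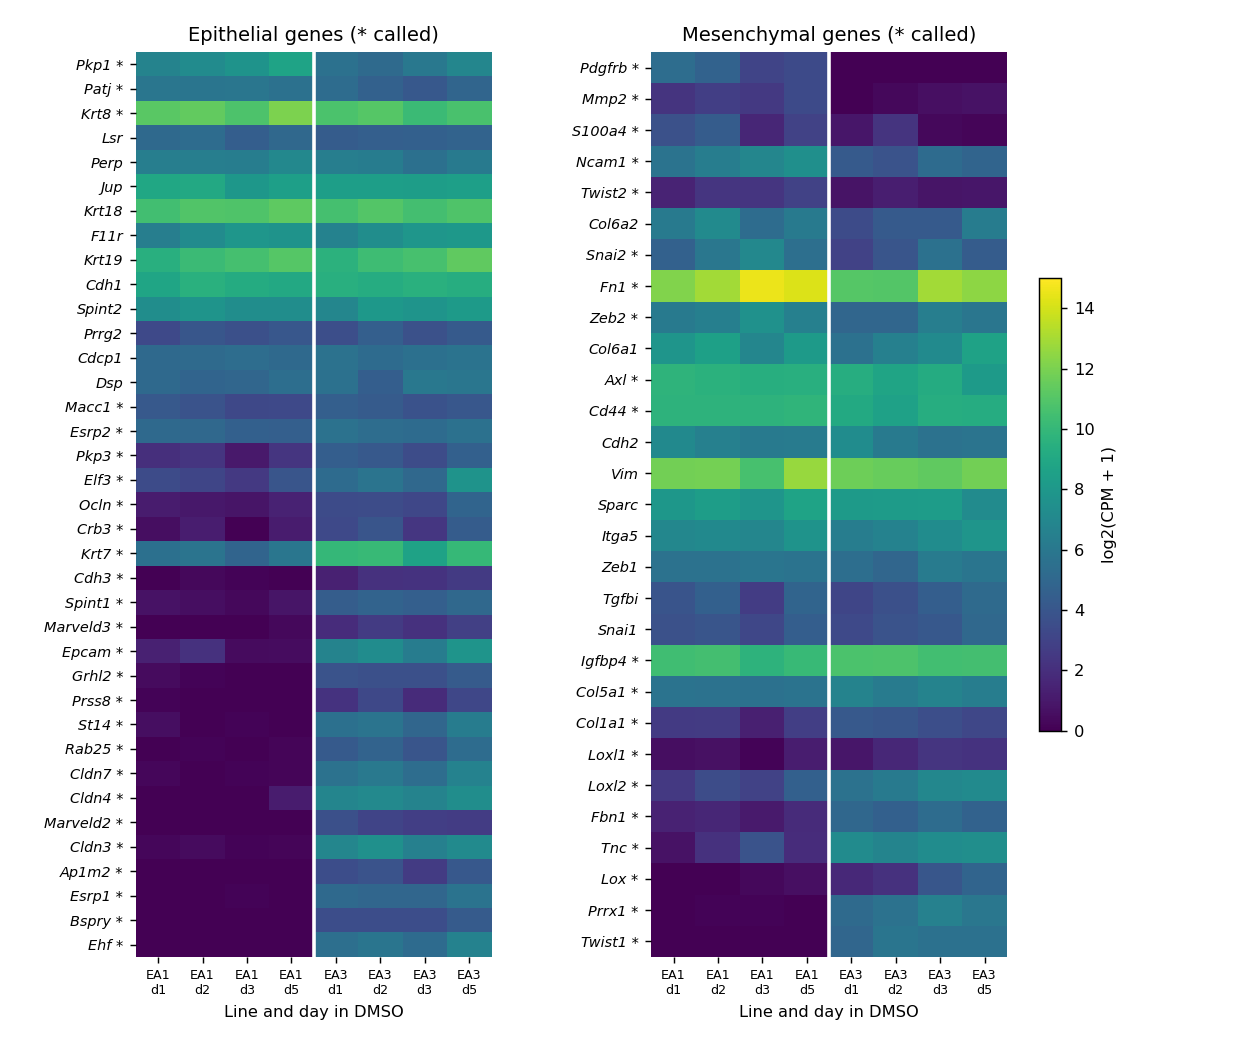
Levels of tested epithelial genes (left) and tested mesenchymal genes (right), with 1 gene of each list not drawn, as log2(CPM + 1) in color, with 1 column per library in the order EA1 then EA3 and days 1, 2, 3 and 5, and an asterisk at called genes. Rows are ordered by log2 fold change. Cdh1, Krt18 and Krt19 are bright in all 8 libraries, while the lower rows on the left, from Cdh3 to Ehf, are dark in the EA1 columns and brighter in the EA3 columns.

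Mesenchymal genes divided. These encode the motility cytoskeleton, fibrillar matrix and the repressors that turn epithelial genes down. Of 30 tested, 11 were higher in EA3, 10 were lower and 9 were not called (median -0.15), and without the day block 8 were higher and 5 lower. The repressor genes Zeb1 and Snai1 were not called (-0.10 and 0.29). Zeb2 was lower in EA3 (-1.14, SE 0.18), with 70.1, 86.2, 191 and 93.1 CPM in EA1 against 29.9, 30.2, 83.0 and 59.4 CPM. Snai2 was lower as well (-1.62, SE 0.20), on all 4 days. Twist1, a further factor of the same program, went the other way: it had 0 counts in every EA1 library and 29.4, 55.2, 47.3 and 48.3 CPM in EA3, at least 127-fold higher. Prrx1, a homeobox factor of mesenchyme, had a total of 2 counts in EA1 and 34.9 to 94.7 CPM in EA3. Twist1 and Prrx1 were present in EA2 as well, at 92.5 to 131 and 56.6 to 64.4 CPM. Vim, the vimentin gene, had 1611 to 6694 CPM in EA1 and 2555 to 3610 CPM in EA3 and was not called (-0.18, SE 0.25).

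Matrix genes went both ways. So did the collagen genes among them, since the fibrillar Col1a1 was called higher in EA3 while those below were lower. Fibronectin (Fn1) had 4612, 7725, 24164 and 19012 CPM in EA1 and 2144, 1991, 7860 and 5626 CPM in EA3 (-1.6, SE 0.20). Col12a1, a fibril-associated collagen, had 161, 192, 249 and 258 CPM in EA1 and 2.62, 1.98, 2.31 and 4.94 in EA3 (-6.20, SE 0.24), and the fibrillar Col5a3 was lower by -5.49 (SE 0.48). Smoc2, a matricellular protein gene, was among the 3 genes with the smallest p (adjusted p = 6.13e-08 by edgeR), with 412, 470, 104 and 406 CPM in EA1 and at most 0.843 CPM in EA3. Ddr2, a receptor for fibrillar collagen, was at 89.9, 187, 351 and 160 CPM in EA1 and 1.69, 2.11, 9.24 and 4.09 CPM in EA3 (-5.62, SE 0.25). Higher in EA3 were the tenascin gene Tnc (5.23, SE 0.63), the crosslinking enzyme genes Lox (6.0, SE 0.46) and Loxl2 (3.24, SE 0.28) and the fibrillin gene Fbn1 (3.97, SE 0.32). Lox was at 0 in EA1 on days 1 and 2 and at 28.1 CPM in EA3 on day 5. Efemp1, a fibulin gene, had a total of 1 count in EA1 and 41.5, 59.7, 75.2 and 75.6 CPM in EA3. Flnc, the actin crosslinker filamin C, also had one of the 3 smallest p, with at most 2 counts in an EA1 library and 219, 111, 439 and 168 CPM in EA3 (ratio 1577, 95% counting interval 676 to 4859).

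Of 28 tested laminin, collagen IV and integrin genes, 10 were higher and 5 lower (median 0.15), and without the day block 10 and 2. The laminin-332 chain gene Lama3 was higher by 6.03 (SE 0.36), while the integrin subunit Itgb4 that binds this laminin was lower, with 695, 709, 343 and 744 CPM in EA1 against 193, 147, 158 and 228 CPM in EA3. Itgb1, the subunit shared by most matrix integrins, was lower by -1.05 (SE 0.17).

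**Figure D3:**
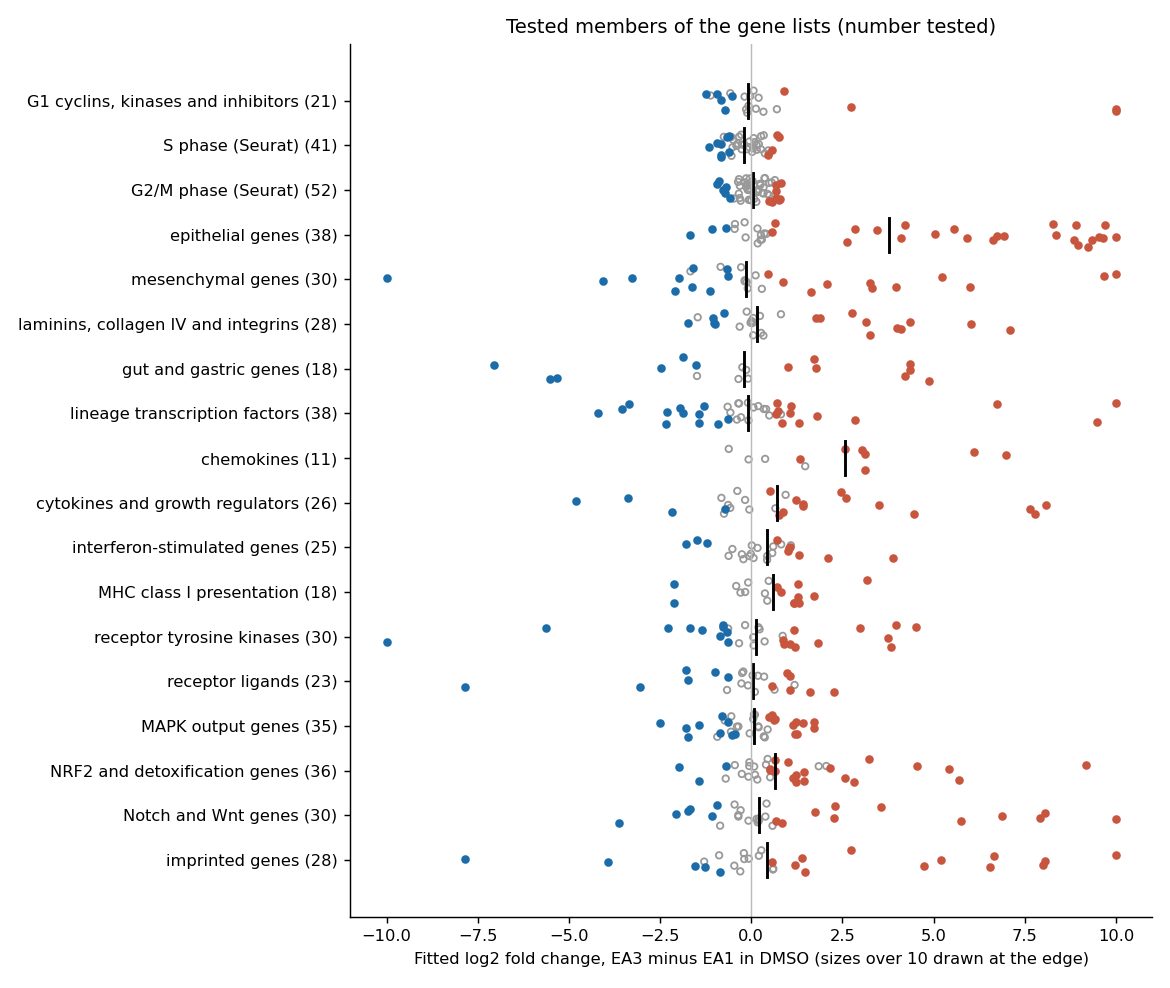
Fitted log2 fold changes, EA3 minus EA1 in DMSO (horizontal), of the tested members of the gene lists (vertical, number tested in brackets), with 1 point per gene, filled where called and open where not, and a black bar at each median. Values over 10 in size are drawn at the edge, and those of genes near 0 counts in a line depend on the prior count of the fit. Most epithelial genes lie right of 0, with a median of 3.78 and 3 members called lower, and the S phase genes lie around a median of -0.19.

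Some defining genes of alveolar type 2 cells were at or near 0 in both lines and others were not. Nkx2-1, the factor of the lung epithelium, and Sftpa1 were at 0 counts in all 8 libraries, and Sftpc, the type 2 surfactant gene, had at most 1 count in a library. Sftpd, a further surfactant protein gene, was at 0 in EA1 and had up to 35 counts in an EA3 library. The lipid transporter gene Abca3 and Lpcat1, an enzyme of surfactant lipid synthesis, were present in both lines and higher in EA3 (0.75, SE 0.23 and 0.83, SE 0.16). Of 9 tested type 2 genes of 21, 3 were higher and 1 lower. Muc1, a membrane mucin, had 3.20, 4.58, 0.925 and 0.917 CPM in EA1 and 181, 281, 87.5 and 168 CPM in EA3 (6.30, SE 0.28). Of 10 tested type 1 genes of 18, 4 were higher and 3 lower. Krt7 was higher at 1012, 1112, 403 and 1060 CPM against 46.3, 54.6, 27.2 and 59.2 (4.22, SE 0.18), and the water channel gene Aqp5 was higher too (2.24, SE 0.24). Cav1, which encodes caveolin-1, was lower (-1.99, SE 0.16). Of 7 tested airway genes of 27, 3 were higher and 1, Sox2, was lower. Among the higher was Foxj1, the factor of ciliated cells, at 2.99 to 9.54 CPM against at most 0.442. The ciliated genes Tppp3 and Ccdc153 did not follow. Tppp3 was too low to be tested, with mean levels of 1.85 CPM in EA1 and 0.734 CPM in EA3. Ccdc153, Scgb3a2, Cyp2f2, Krt5 and Bpifa1 had 0 counts in all 8 libraries, and Scgb1a1 had at most 1 in a library. The markers of other cell types were low: 8 of 12 fibroblast, 8 of 12 endothelial and 16 of 20 leukocyte markers had at most 3 counts in every EA1 library, and in EA3 9, 9 and 14 of them. Their summed levels were 9.83 to 46.7, 6.02 to 9.17 and 45.8 to 111 CPM in EA1 and 11.1 to 21.1, 5.52 to 13.3 and 78.1 to 207 CPM in EA3. Ptprc, the pan-leukocyte gene, Itgam, Itgax and the macrophage receptor gene Csf1r were at 0 in EA1 and reached 2, 3, 1 and 20 counts in an EA3 library, and Tyrobp was at 0 in both lines. The leukocyte markers that were tested were Cd14 and Cd68, and Cd68, a lysosomal protein gene of macrophages, had 1.44, 1.88, 2.89 and 9.69 CPM in EA1 and 5.34, 18.8, 38.5 and 94.6 CPM in EA3. The part of other cell types in the differences was not tested.

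Some genes of the gut and stomach were found in both lines, at like levels or not, and others were in neither. Cdx1, Gkn1, Gkn2, Gkn3, Tff1, Tff3, Reg4 and Slc26a3 had 0 counts in all 8 libraries. Vil1 had at most 5 counts in a library, and Fabp1 at most 1. Of 18 tested members of 38, 7 were higher and 6 lower (median -0.19). In EA1 the intestinal cadherin gene Cdh17 had 729, 584, 661 and 524 CPM, against 124, 112, 128 and 81.2 in EA3 (-2.49, SE 0.16). The hepatic and gut factor Hnf4a had 265, 192, 55.4 and 67.6 CPM in EA1 and 56.3, 36.0, 19.8 and 26.4 in EA3 (-1.88, SE 0.22) and Gata4 was lower by -5.33 (SE 0.35). Tspan8, a tetraspanin gene of gut epithelium, and Krt20, a keratin gene of the same tissue, had mean levels of 189 and 33.8 CPM in EA1 and 183 and 35.0 CPM in EA3 and were not called. The 4 members that were higher in EA3 by the largest fold changes were the pancreatic and antral factor Pdx1 (4.36, SE 0.30), the gastric protease gene Ctse (4.36, SE 0.30), Gpa33 (4.21, SE 0.54) and the gastric annexin gene Anxa10 (4.88, SE 0.59). Pdx1 was at 15.1 to 25.3 CPM in EA3 and 0.524 to 1.66 CPM in EA1. Of 38 tested lineage transcription factors, 12 were higher and 12 lower, and without the day block 7 and 9. The Iroquois factors Irx1 (-4.19, SE 0.28) and Irx2 (-2.30, SE 0.18), Runx3 (-3.54, SE 0.24) and the lung mesenchyme factor Foxf1 (-5.51, SE 0.29) were lower. Gata6 was higher (1.80, SE 0.17), and the hindlimb factor Pitx1 was at 0 counts in EA1 and 6.98 to 15.0 CPM in EA3.

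The receptor tyrosine kinases and their ligands, the class to which ALK belongs, also divided. Of 30 tested kinases of 50, 11 were higher and 10 lower, and without the day block 7 and 5. Erbb3, the kinase-impaired partner of the EGF receptor family, had 2.98, 3.29, 2.08 and 3.54 CPM in EA1 and 36.5, 45.1, 42.0 and 62.1 in EA3 (3.96, SE 0.22). Erbb2 was not called (0.23, SE 0.18) and Egfr was lower (-0.79, SE 0.17). The receptors of the VEGF family Flt1 (2.97, SE 0.31), Kdr (3.83, SE 0.56) and Flt4 (4.52, SE 0.35) were all higher, and Flt1 reached 442 CPM in EA3 on day 5 against 44.8 in EA1. Met was higher by 0.88 (SE 0.19). Pdgfrb had 0 counts in every EA3 library and 40.2, 24.8, 7.52 and 9.17 CPM in EA1, and its ligand gene Pdgfb was the higher one in EA3 (2.26, SE 0.28). Of 23 tested ligands, 6 were higher and 6 lower, and without the day block 3 and 3. The EGF receptor ligands went both ways: Tgfa was higher (1.6, SE 0.21), and Areg and Ereg were lower (-1.80, SE 0.31 and -1.73, SE 0.22), with Areg at 237, 457, 2437 and 703 CPM in EA1 against 85.0, 168, 273 and 305 CPM. Of 35 tested genes that report MAPK signaling, 11 were higher and 9 lower (median 0.07); the phosphatase gene Dusp6 and the ETS factor gene Etv5 were not called (0.45 and 0.19). With 1 day left out the MAPK counts were 7 to 12 and 4 to 9, and without the day block 2 in each direction.

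Wnt ligand genes were among the largest differences. Wnt7a had a total of 1 count in EA1 and 59.2, 52.5, 58.6 and 60.9 CPM in EA3 (ratio 1952, 95% counting interval 350 to 77133). Wnt10b was at 0 to 0.442 CPM in EA1 and 26.6 to 41.0 CPM in EA3, and Wnt10a had 0 counts in EA1 and 2.21 to 4.71 CPM in EA3. Wnt5a, which signals without beta-catenin, was lower in EA3 (-2.05, SE 0.18), as was its receptor Ror2 (-1.67, SE 0.19). Of the genes that beta-catenin induces, Sp5 had a total of 1 count in EA1 and 4.08 to 22.1 CPM in EA3, and Axin2 was too low to be tested. The Notch receptor gene Notch1 (2.26, SE 0.24) and the ligand gene Dll1 (3.56, SE 0.27) were higher, and the ligand gene Jag1 was lower (-1.73, SE 0.17). Over the Notch and Wnt list, 11 of 30 tested members were higher and 6 lower, and without the day block 8 and 4.

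Secreted immune factors were more often higher than lower in EA3. Of 11 tested chemokine genes of 36, 7 were higher and none was lower (median 2.56), and 6 to 8 were higher with any 1 day left out. Cxcl5, a ligand of the neutrophil receptor CXCR2, had 2.76, 3.53, 1.16 and 1.05 CPM in EA1 and 163, 436, 165 and 373 CPM in EA3 (7.00, SE 0.37). Cxcl3, of the same family, was higher by 6.12 (SE 0.55). Cxcl1 differed less (1.34, SE 0.24), with 21.9, 98.3, 51.1 and 111 CPM in EA1 against 34.2, 182, 203 and 382. Cxcl16 (2.56, SE 0.17) and Ccl20 (3.12, SE 0.31) were higher as well. Of 26 tested cytokine and growth regulator genes, 13 were higher and 4 lower, and without the day block 7 and 1. Csf3, which drives neutrophil production, was at 15.4, 122, 43.2 and 76.9 CPM in EA3 and at most 0.47 CPM in EA1 (7.65, SE 0.31). Il23a had a total of 2 counts in EA1 and 13.7 to 32.7 CPM in EA3, and Il24 a total of 1 count and 8.52 to 12 CPM. The ligands of the TGF-beta family Bmp6 and Bmp7 were higher (4.47, SE 0.36 and 3.49, SE 0.53). Bmp2 (-4.80, SE 0.61) and Inhba, the activin A subunit (-2.17, SE 0.19), were lower. Bmp5 was at 38.7 to 71.3 CPM in EA1 with a total of 1 count in EA3, but 46.7% of its exon bases overlap a gene of the opposite strand, and the strand setting of the counts is not given in the sources used here.

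More MHC class I genes were higher than lower in EA3. Of 18 tested, 9 were higher and 2 lower (median 0.59), 6 to 11 and 1 to 2 with any 1 day left out, and 2 and 0 without the day block. H2-K1, a classical heavy chain, had 17.4, 41.2, 55.2 and 134 CPM in EA1 and 45.3, 165, 175 and 448 CPM in EA3 (1.71, SE 0.16), so the level rose with the days in both lines and EA3 was the higher line on each. H2-D1 was not called (0.48, SE 0.18), and reads of such similar genes may be shared. The transporter genes Tap1 and Tap2, which load peptides on these molecules, were the lower members, both by -2.11. Of 25 tested interferon-stimulated genes, 7 were higher and 3 lower (median 0.43). With any 1 day left out 4 to 7 of them were higher and 2 to 3 lower, 4 with day 5 left out, and without the day block 2 were higher and 1 lower. Oasl1 (2.11, SE 0.22) and Irf1 (1.30, SE 0.21) were higher, and Ifi27 (-1.79, SE 0.32) was lower. None of the 5 tested MHC class II genes was called by edgeR. Of 13 tested checkpoint and costimulatory genes, 4 were higher and 4 lower, and without the day block 3 and 1. Nectin2, a ligand of TIGIT, was higher (1.5, SE 0.15), and Nt5e, the adenosine-producing enzyme CD73, was lower (-2.03, SE 0.27). Cd80, the CD28 ligand, had at most 1 count in an EA3 library and 3.65 to 10.6 CPM in EA1.

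Genes of detoxification were higher more often than lower. Of 36 tested members of a list of NRF2 targets and detoxification enzymes, 19 were higher and 3 lower (median 0.64). With any 1 day left out 13 to 20 were higher, and without the day block 11. The core NRF2 targets Gclc (-0.26), Gclm (0.08), Txnrd1 (0.10) and Hmox1 (-0.06) were not called, and the gene of NRF2 itself, Nfe2l2, was lower (-0.69, SE 0.18). Of the members that were higher, Cbr1, Cyp1b1 and Cbr3 had the smallest p. The carbonyl reductase gene Cbr1 was at 0.442, 1.06, 0.578 and 1.96 CPM in EA1 and 30.5, 64.4, 38.9 and 66.4 CPM in EA3 (5.69, SE 0.26), and its neighbor of similar sequence Cbr3 was higher by 5.43 (SE 0.58). The cytochrome P450 gene Cyp1b1 was higher by 3.22 (SE 0.22), and the aldehyde dehydrogenase gene Aldh3a1 was higher by 2.17 (SE 0.27). Aldh1a1 and Aldh1a7 were higher too, but are near copies whose reads may be split. Aldh1a3 was lower (-1.99, SE 0.38).

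Several imprinted genes were present in 1 line only. Imprinted genes are read from 1 parental copy, set by methylation of shared control regions. Of 28 tested members of 52, 12 were higher in EA3 and 5 lower (median 0.42), 8 to 14 and 5 with any 1 day left out. Peg3 had 0 counts in every EA1 library and 39.4, 34.8, 175 and 65.2 CPM in EA3, at least 221-fold higher, and Usp29, which shares its promoter region on chromosome 7, had 0 counts in EA1 and 1.97 to 6.93 CPM in EA3. The neighbors Peg10, Sgce and Ppp1r9a on chromosome 6 followed the same pattern, with 0, 1 and 1 counts in all of EA1 and 1.36 to 6.52, 1.87 to 5.98 and 2.97 to 5.28 CPM in EA3. Mest was higher by 5.2 (SE 0.45) and Zrsr1 by 4.73 (SE 0.26). Meg3 and Rian, of one cluster on chromosome 12, had no EA1 library above 1 count and up to 84 and 59 in EA3, and were too low on some day to be tested. In the other direction, Igf2 had 0 counts in every EA3 library and 2.62 to 4.35 CPM in EA1, with 62.8% of its exon bases shared with another gene model of the same strand, and Peg12 was lower (-3.93, SE 0.50). Methylation was not measured here. In EA2 Peg3 was at most 0.087 CPM and Peg10 was at 0.

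The median difference varied from chromosome to chromosome. The median log2 fold change of the tested genes of a chromosome ran from -0.43 on chromosome 14 to 0.41 on chromosome 17. On chromosome 17, 37.6% of the 614 tested genes were higher and 5.21% lower, and the medians of all 9 windows of 10 Mb with at least 10 tested genes were above 0. Chromosomes 5, 15 and 11 also had every window above 0, with medians of 0.32, 0.33 and 0.15. On chromosome 8, 7.70% of 688 tested genes were higher and 39.5% lower (median -0.42), and none of 13 windows was above 0. The same held for all windows of chromosomes 7, 9 and 14, with medians of -0.32, -0.30 and -0.43. On single days, after subtraction of the median of all genes of that day, the median of chromosome 17 was 0.38 to 0.42 and that of chromosome 8 was -0.47 to -0.38. That of chromosome 10 was -0.26 to -0.090, and the medians of chromosomes 1, 12 and 16 changed sign between days. All 19 chromosomes had the same sign in the alectinib libraries, which share no library with the DMSO comparison. DNA copy number was not measured here, and its part in these shifts was not tested.

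**Figure D4:**
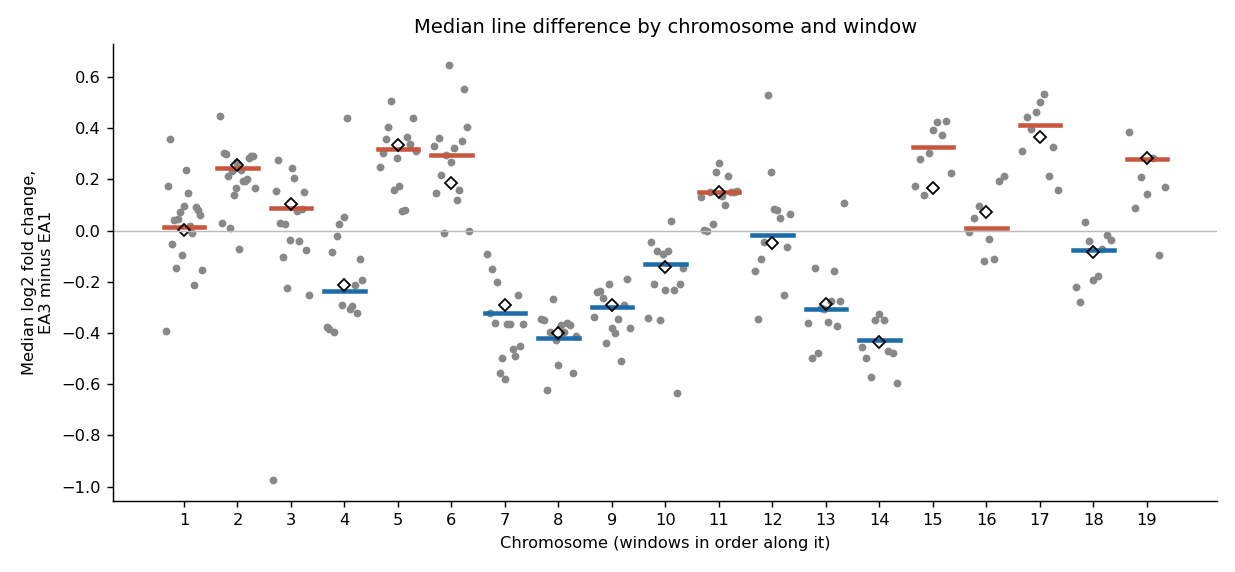
Median log2 fold change, EA3 minus EA1 (vertical), of the tested genes of each autosome in DMSO (colored bars), of each window of 10 Mb with at least 10 tested genes (gray points, in order along the chromosome) and of each autosome in alectinib (open diamonds). Chromosome 17 sits highest at 0.41 and chromosomes 8 and 14 lowest at -0.42 and -0.43.

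A total of 178 genes were seen in EA3 only, by a rule of at most 3 counts in each library of 1 line and at least 1 CPM in each of the other, and 53 in EA1 only. The highest levels of the first set were those of Cdkn2a, Flnc, Slc38a1, Cdkn2b, Cldn3, Prl, Disp2 and Peg3. Slc38a1, a glutamine transporter gene, had a total of 1 count in EA1 and 202, 116, 260 and 97.2 CPM in EA3. Prl, the prolactin gene, which is a product of the pituitary, had 0 counts in EA1 and 92.2, 203, 113 and 105 CPM in EA3, at least 360-fold higher, and was at 0 in EA2. Disp2, a relative of the Hedgehog release protein Dispatched, had a total of 3 counts in EA1 and 77.2 to 178 CPM in EA3. EA2 held at least 1 CPM in each DMSO library for 60 of the 178 genes and at most 3 counts in each for 82. The highest of the EA1 set, with genes named only by a clone or model number left out, were Crisp1, Bmp5, Fendrr, Pdgfrb, Inka2, Slc24a2, Hspb8 and Mcpt1. Crisp1, a secretory protein gene of the epididymis, had 68.2, 98.0, 80.2 and 182 CPM in EA1 and a total of 3 counts in EA3 (ratio 1114, 95% counting interval 381 to 5402). Fendrr, a noncoding RNA beside Foxf1, had 10.1 to 30.8 CPM in EA1 and a total of 6 counts in EA3, so both genes of that pair were low in EA3. EA2 held at least 1 CPM in each library for 9 of the 53 and at most 3 counts in each for 29. With days 1 or 3 left out, the EA1 set counted 82 or 81.

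The remaining genes lower in EA3 by rank of fold change were Zfp503, Cplx2, Palmd, Galnt18 and St8sia6. Zfp503, a transcriptional repressor gene, had 56.8, 83.0, 36.0 and 53.4 CPM in EA1 and at most 0.511 CPM in EA3 (-7.57, SE 0.43). Cplx2, a regulator of vesicle fusion, was lower by -6.41 (SE 0.40), and the glycosyltransferase genes Galnt18 and St8sia6 by -5.63 (SE 0.50) and -5.58 (SE 0.65).

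Most genes called in DMSO were called with the same sign under alectinib. The 8 libraries of the same days in 100 nM alectinib gave 6312 called genes of 12674 (49.8%). Of the 4170 genes called in DMSO, 4048 were tested there. A total of 2950 of these were called with the same sign, which is 72.9% of the 4048 and 46.7% of the alectinib calls, and 66 were called with the opposite sign. Ccng1 gave -1.99 in alectinib, Cdh17 -3.18, Krt7 4.27 and Cxcl5 3.71. The difference between the 2 line differences, tested as an interaction over 16 libraries, was past the threshold for 826 of 13195 genes (6.26%), among them 486 of the 4170. That count was 98 with day 2 left out and 99 without the day block. Ehf was one of the 826: EA1 held 0 counts in DMSO and 3.57 to 17.2 CPM in alectinib, while EA3 held 36.8 to 98.9 and 38.3 to 225 CPM. Dll1 was higher in EA3 in DMSO (3.56) and gave -0.84 in alectinib (adjusted p of the difference = 9.17e-05 by edgeR). Il33, an alarmin gene, was higher in EA3 in DMSO (1.42, SE 0.30) and gave -2.28 in alectinib (adjusted p of the difference = 0.0106 by edgeR).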

How the data were processed

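RNA was sequenced from cells of each line, 1 library per line, treatment and day. The deposited table held raw counts per gene symbol, which the authors made from paired reads trimmed with BBDuk and aligned to mm10 with STAR, using its own counter. The annotation release and the strand setting are not given in the sources used here. Of 55415 table rows, 24 were named by a date number and held 0.129% to 0.170% of the counts of the 8 libraries. They were left out, as were 4182 rows of the X and Y chromosomes. The remaining symbols were matched, with letter case ignored, to GENCODE M21. The values of some genes are not reported here.

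The counts were tested with edgeR 4.0.16 in R 4.3.3, with genes kept by filterByExpr, libraries scaled by TMM factors and a robust quasi-likelihood test. The model held line and day. The interaction was fitted over the 16 libraries of both lines and treatments. The days paired the libraries: the deviations of same-day EA1 and EA3 libraries from their line means correlated by 0.68, 0.47, 0.33 and 0.68 on days 1, 2, 3 and 5, over 11798 genes. Adjusted p-values are Benjamini-Hochberg values over all genes tested. In the simulated data used to check the test, 200 genes were changed by known folds. Of 99 tested genes changed by a log2 size of 1, 59 were called, and of 99 changed by 2, 97 were called. Of 11565 unchanged genes, 16 were called. A gene that was not called may thus still differ. DESeq2 1.42.0, other scalings and filters, a fit without the day block and each day left out were the alternatives.

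The gene lists and the comparison itself were chosen with earlier results of these data known. Genes were named by rule: the rearranged genes, Cdkn1a and Mdm2, the 12 highest and 12 lowest fold changes with a mean of at least 16 CPM, the 3 smallest p, up to 3 per list and direction, and the 8 highest genes found in 1 line, with genes named by a Gm, Rik or clone number left out. Some further list members, among them those given as not called, the EGF receptor genes and the neighbors of imprinted genes, were chosen after their values were seen. The 12 highest and 12 lowest genes were taken from called genes with 1 sign on all 4 days. In genes with at most 3 counts in each library of a line, ratios of summed counts carry 95% exact counting intervals.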

Additional observations from a re-analysis of the deposited data

Results flagged for a closer look

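The genes described by size of difference were examined for a library far from the others of its line. In 39 groups of 4 none was found, where chance gives about 1 in 20 groups. The genes with the highest and lowest fold changes had to be called with 1 sign on all 4 days. That rate need not hold for genes chosen so. Of 30 genes examined, 4 differed between the lines by another amount in alectinib than in DMSO. The test was edgeR's quasi-likelihood test of the interaction, with Benjamini-Hochberg adjustment over 13195 genes. It was past the threshold for 486 of the 4170 genes called in DMSO. The 30 genes were chosen by their DMSO differences, which the interaction uses again. That choice favors a smaller difference in alectinib, and all 4 were smaller there.

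Ehf, the epithelial factor gene, had a log2 difference in alectinib minus that in DMSO of -8.33 (adjusted p = 0.000856 by edgeR), a fitted value that depends on the prior count because EA1 held 0 counts in DMSO. EA1 held 3.57 to 17.2 CPM of Ehf in alectinib. Efemp1, the fibulin gene, gave -4.78 (adjusted p = 0.00496 by edgeR), with 0.0992 to 2.92 CPM in EA1 and 72.3 to 128 CPM in EA3 under alectinib. The value of Efemp1 also depends on the prior count, because EA1 held a total of 1 count in DMSO. Smoc2 gave 2.64 (adjusted p = 0.00741 by edgeR), with 162 to 301 CPM in EA1 and 0.574 to 2.42 CPM in EA3 under alectinib. Col12a1 gave 2.68 (adjusted p = 0.000321 by edgeR), with 449 to 1034 CPM in EA1 and 32.0 to 154 CPM in EA3 under alectinib. For all 4 genes the line that was higher in DMSO was also higher in alectinib.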

How the results depend on the processing

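Without the day block, which treats the same-day pairing as absent, 1756 genes were called in DMSO (1005 higher and 751 lower) and 99 for the difference between treatments. With 1 day left out in turn, the DMSO calls ran from 2368 to 4638, the higher ones from 1290 to 2368 and the lower ones from 1078 to 2270. The same range was 4160 to 6471 in alectinib and 98 to 1005 for the difference between treatments. Requiring a log2 fold change of size 1 or more left 2101 DMSO calls (1226 higher, 875 lower) and 2335 in alectinib. With at least 10 counts in every library, 505 genes differed between treatments and the median of chromosome 1 was -0.016. The chromosome medians with 1 day left out were -0.024 to 0.016 for chromosome 1, -0.34 to -0.32 for chromosome 7 and 0.38 to 0.42 for chromosome 17, and library size alone put chromosome 7 at -0.31. The genes found in EA1 alone numbered 59 to 82 with 1 day left out, alternatives chosen after seeing the data. The cause of these moves was not tested.

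Of the values of 162 named genes under the alternatives, 1768 kept their direction and side of the threshold. A further 93 lost the call, 47 of them without the day block, and 4 gained it, all for Cdkn1a. With at least 10 counts in every library, 85 genes kept theirs and 1 lost the call, and the other named genes were not tested. Most of these genes were named for a large difference or a small p, which favors calls that hold. Eml4, at -0.17 over all days, ran from -0.36 to 0.070 with 1 day left out and turned with day 2 left out. DNA copy number, transcripts and cultures cannot be separated with 1 line per group.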
